A study of Mus musculus with 7 samples.

Results

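Heterotrimeric G proteins relay signals from receptors of the seven-helix class to enzymes and ion channels inside the cell, and 46 mouse genes encoding their subunits or regulators were followed here. They were chosen by name: 12 alpha subunits, 5 beta subunits, 12 gamma subunits, 3 Gpsm proteins and 14 members of the RGS family (regulators of G protein signalling). A probe set, a group of short oligonucleotides on an Affymetrix array that reads 1 transcript region, was counted for a gene when its annotation named that gene and no other. By this rule 45 of the 46 genes were found, among 18193 genes with a sense probe set. Gng5 was the exception, because each of its probe sets also carried the symbol of a Gng5 pseudogene. The 45 genes had 111 sense probe sets of 45037, and 9 of them also had 13 reverse probe sets of 5652.

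In the resting state an alpha subunit holds GDP and is bound to a beta-gamma pair. An activated receptor exchanges the GDP for GTP, and alpha and beta-gamma then separate and act on their targets. RGS proteins speed up GTP hydrolysis by alpha subunits and so shorten the signal, while Gpsm proteins carry GoLoco motifs that hold alpha subunits of the Gi class in their GDP form. In brain the Gi and Go class carries the slow inhibitory actions of many transmitters, and in kidney G proteins serve hormone receptors of the tubule and the vessels.

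The series set RNA from total mouse brain against RNA from total mouse kidney, on arrays that read sense transcripts and on reverse probe sets that read transcripts of the opposite strand. Brain sense RNA was hybridised to a 430A array and a 430B array, kidney sense RNA to a 430 2.0 array that carries the probe sets of both, and antisense transcripts of each tissue to a U74A and a U74B array. The labels name no treatment beyond dissection, a wash in cold buffer and lysis in TRIzol, and labelling began from 8 µg of total RNA for brain and 6.75 µg for kidney. They give no strain, sex, age or number of animals. Each of the 7 arrays is a group of its own, so no value below has a replicate error or a p-value, and tissue cannot be told apart from array type in the sense comparison. In whole organs, fewer cells of a type and less RNA per cell cannot be told apart either.

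A sense ratio is brain over kidney on the same probe set, after each brain array was centred on kidney at the median ratio of its brighter probe sets. Signals below a floor were raised to it (186 for 430A and 28.6 for 430B, in kidney signal units), so a ratio with 1 tissue below the floor is a lower bound and is written "at least". Both floors are the brain array's median after centring, and the 430A floor lies high among kidney signals. A kidney signal just under it, that of Gna14, was at percentile 73.6 of the kidney array. A gene below the floor is therefore not shown to be absent from kidney. A gene was read through its probe set with the highest mean rank over the tissues, and a difference of 2-fold or more counted as a call. Of the members, 32 were read on 430A and 13 on 430B. The 430B scale is uncertain: 98 bright probe sets that both brain arrays carry allow 430B to be brought to the 430A scale instead, which moves every unfloored 430B ratio up by 1.60 on the log2 scale and is given beside each such member. The same 98 probe sets, which repeat a measurement of brain RNA on a second array, had an SD of 0.25 (log2) around their median ratio. The markers fixed for each organ mostly fitted the labels. Brain sums of marker signals, here and below, are of signals after centring, with 430B centred by itself. All 6 neuronal markers read were higher in brain, with summed signals of 21691 in brain and 151 in kidney. All 5 markers of the loop, distal tubule and collecting duct were higher in kidney, with 421 and 21231. Of the proximal tubule markers, 4 of 5 were higher in kidney, while Lrp2, read on 430B, was at least 2.57-fold higher in brain. Genes of the pituitary, an organ attached to the brain, were higher in the brain sample in 4 of 5 cases, with summed signals of 24038 and 140. Of the adrenal and fat markers, 2 of 5 were higher in kidney and 0 in brain, with summed signals of 604 and 5719. They were Fabp4 (at least 26.8-fold) and Adipoq (at least 3.31-fold). The part of cell makeup in the members' ratios was not tested.

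Of the 45 members, 38 passed the floor in brain, kidney or both. Brain gave the higher signal for 16 (42.1% of the 38) and kidney for 7 (18.4%), while 15 differed by less than 2-fold and 7 were below the floor in both. The background was 12984 genes above the floor, 17.8% of them called for brain and 27% called for kidney. The median log2 ratio was 0.32 for the members and -0.11 for all genes. With 430B at the 430A scale, brain was higher for 19 of 37 members above the floor and kidney for 4, against 27.2% and 15.8% of all genes, and the medians became 1.07 for the members and 0.31 for all genes. Counts by role ran from mixed to mostly brain: 2 alpha subunits were higher in brain and 3 in kidney, 3 beta subunits in brain and 0 in kidney, 3 gamma subunits each way, and 7 RGS genes in brain and 1 in kidney. Probe sets of 1 gene often gave different ratios: over the 22 members with more than 1 sense probe set above the floor their pooled SD was 0.92 (log2), beside 1.04 over all such genes. With 430B at the 430A scale these SDs were 0.85 and 0.95.

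**Figure D1:**
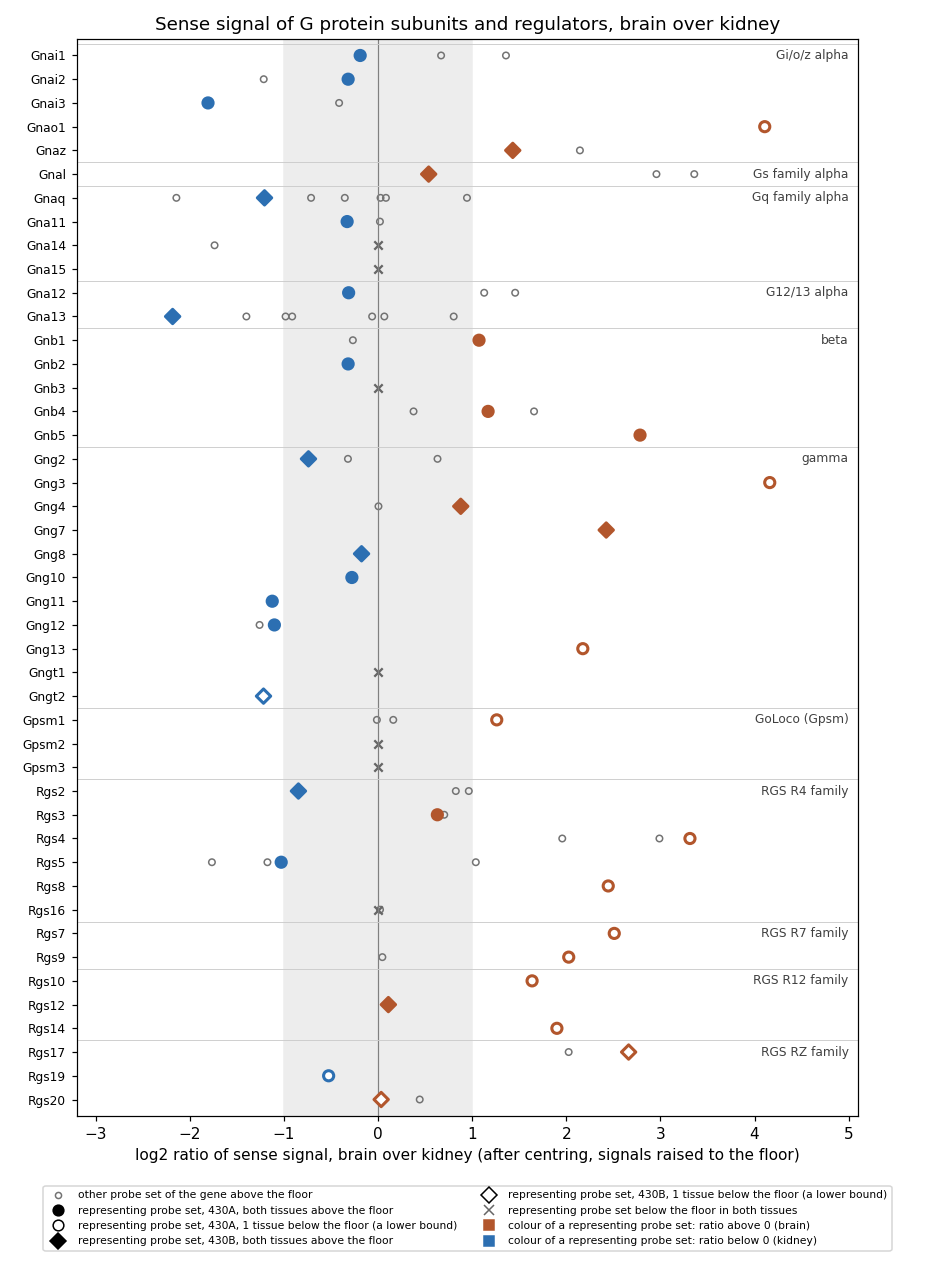
Log2 ratio of sense signal, brain over kidney, for the 45 members, ordered by role. Filled symbols have both tissues above the floor, open coloured symbols are lower bounds, small grey circles are other probe sets of the same gene, crosses mark members below the floor in both tissues (drawn at 0), and the grey band spans less than 2-fold. Gng3 (4.16) and Gnao1 (4.11) lie farthest to the brain side and Gna13 (-2.18) and Gnai3 (-1.81) farthest to the kidney side.

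Alpha subunits of the Gi and Go class, which inhibit adenylyl cyclase or act mainly through their beta-gamma partners, ranged from strongly brain-sided to kidney-sided. Gnao1, which encodes Go alpha, the abundant alpha subunit of neurons, had a deposited signal of 1793 in brain and 51.7 in kidney. Kidney lay below the floor, and brain was at least 17.2-fold higher. This probe set was the only one of its 3 above the floor: the others read 77.8 and 71.9 in brain. Gnaz, the Gz alpha subunit of neurons and platelets, read 389 in brain and 34 in kidney on 430B, a 2.70-fold brain excess (at least 3.20-fold at the 430A scale), and its 430A probe set gave at least 4.42-fold in the same direction.

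Of the 3 Gi alpha genes, whose products are close relatives, Gnai3 was called for kidney and Gnai1 and Gnai2 were not called. Gnai3 read 203 in brain and 1273 in kidney and was 3.50-fold higher in kidney, the member that kept its kidney call under all 7 other settings listed for the sense arrays; its second probe set gave 1.33-fold, at least, on the same side. Gnai2 read 967 and 2160, a 1.25-fold kidney excess, with a second probe set 2.32-fold higher in kidney. Gnai1 read 1090 and 2228, a 1.14-fold kidney excess, but its 2 dimmer probe sets lay on the brain side, 1 of them (267 in brain, 152 in kidney) at least 2.56-fold.

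Gnal encodes Golf alpha, the stimulatory alpha subunit of striatal neurons and olfactory sensory cells. Its representing probe set read 267 in brain and 43.3 in kidney on 430B, 1.45-fold higher in brain (at least 2.19-fold at the 430A scale). The other pair of Gnal probe sets was far more one-sided: brain read 944 and 1247, kidney 14.7 and 10.5, and brain was at least 7.77-fold and 10.3-fold higher under both scalings. These bounds cannot differ between the scalings, because the 430B floor is the brain array's median and moves with its signals. With 430B centred by itself the call for this gene therefore depended on the probe set, while at the 430A scale all 3 were called for brain. Striatal markers were higher in brain for 4 of 5, with summed signals of 3551 in brain and 1799 in kidney. Most of the kidney sum came from Penk (1685), the marker that was not called. The part of the striatal markers in the Gnal ratio was not tested.

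Alpha subunits of the Gq class activate phospholipase C-beta, and those of the G12 class form a small family of their own. Gnaq read 1133 in brain and 616 in kidney on 430B. This was a 2.31-fold kidney excess with 430B centred by itself, but a 1.31-fold brain excess at the 430A scale, so its direction depended on the scale of that array. Its only 430A probe set gave a log2 ratio of 0.03, a bound, and its other 430B probe sets ran from -2.14 to 0.94. At the 430A scale 2 of these were called for brain, at 5.82-fold and 3.21-fold, and the lowest that stayed above the floor had a log2 ratio of -0.55. Gna11, the closest relative of Gnaq, read 509 and 1145 on 430A and was 1.26-fold higher in kidney, with a second probe set (368 and 650) at a log2 ratio of 0.02. Gna14 (54.9 in brain, 186 in kidney) and Gna15 (51.2 and 3.7), the Gq-class subunit of blood cells, were below the floor in both tissues. The kidney signal of Gna14 fell just short of it. A 430B probe set of Gna14 gave 8.1 for brain and 95.5 for kidney, a kidney excess of at least 3.33-fold, or at least 1.10-fold at the 430A scale.

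Gna13 read 802 in brain and 859 in kidney, a 4.54-fold kidney excess (log2 ratio -2.18) that shrank to a log2 ratio of -0.59 at the 430A scale. Its 430A probe sets did not settle the size: 1 read 234 and 1104, a 2.64-fold kidney excess, and the other 5 above the floor there lay between -0.98 and 0.80 (log2). Both ends of that range are bounds: the kidney end read 23.2 in brain and 368 in kidney, the brain end 181.5 and 105. Gna12 read 326 and 726 and differed by 1.24-fold, while 2 dimmer probe sets of it gave at least 2.74-fold and 2.18-fold in favour of brain.

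**Figure D2:**
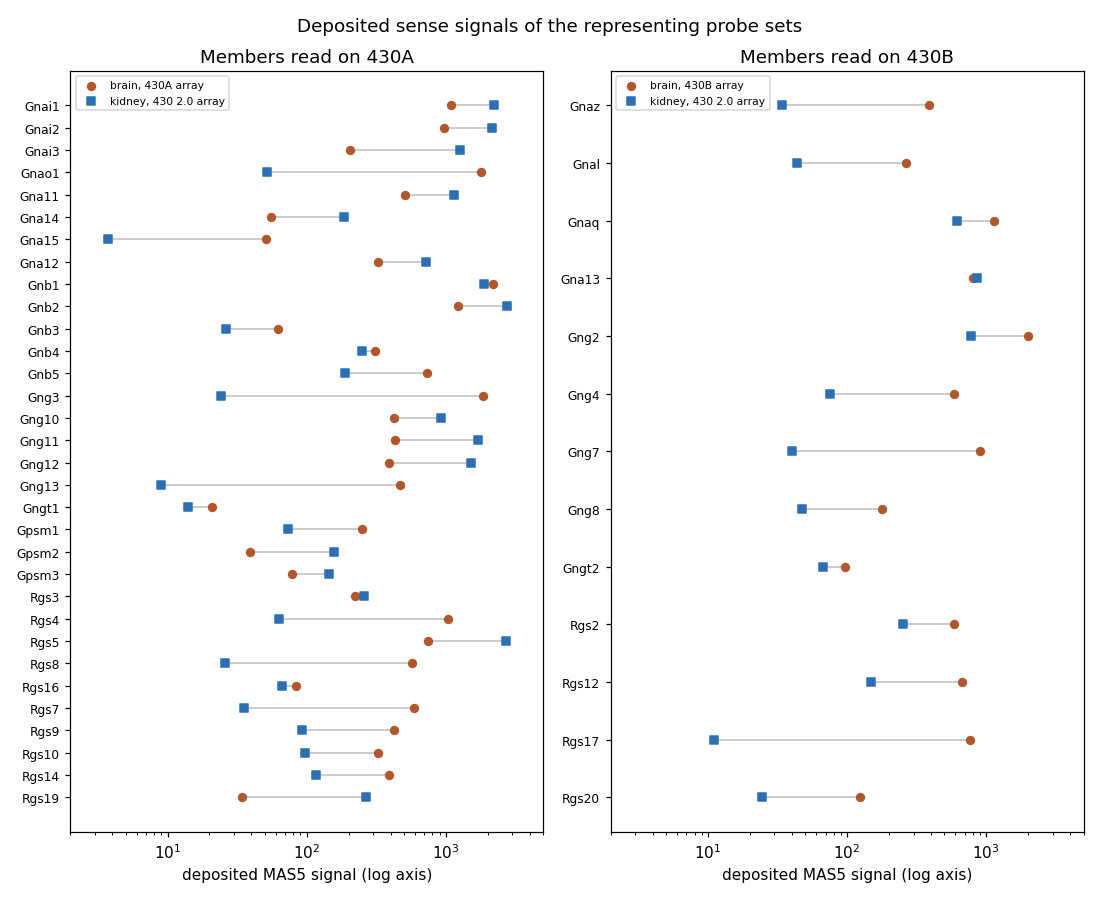
Deposited signals of the probe set that represents each member, with brain as circles and kidney as squares on a log axis, for the 32 members read on 430A and the 13 read on 430B. The signals are as deposited, before centring. On 430B every brain signal but that of Gna13 (802 against 859) is above its kidney signal, and on 430A the widest gaps are at Gng3 (1861 and 24.2), Gng13 (470 and 8.9) and Gnao1 (1793 and 51.7).

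Beta subunits form the propeller that binds alpha and holds gamma, and none was called higher in kidney. Gnb5, a divergent beta that pairs with RGS proteins of the R7 family in place of gamma, read 726 in brain and 189 in kidney and was 6.88-fold higher in brain. Gnb1 read 2188 and 1864, a 2.10-fold brain excess after centring, but its second bright probe set (587 and 1266) gave a log2 ratio of -0.27, on the kidney side. Gnb4 read 311 and 248, a 2.25-fold brain excess, with a second 430A probe set at least 3.15-fold higher in brain. As deposited, the Gnb1 and Gnb4 signals of the tissues differed by only 1.17-fold and 1.25-fold, so both calls came with the centring. Gnb2 read 1231 and 2750 and differed by 1.25-fold after centring. Gnb3, the cone beta subunit, was below the floor with 62.5 and 26.2.

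Gamma subunits anchor the beta-gamma pair to the membrane through a lipid tail. Gng3, the neuronal gamma that binds Gnb1 and other betas, read 1861 in brain and 24.2 in kidney, and brain was at least 17.9-fold higher. Gng7, known from the striatum as the partner of Golf alpha, read 908 and 39.9 on 430B and was 5.37-fold higher in brain (at least 7.47-fold at the 430A scale). Gng13, a gamma of taste, olfactory and retinal cells that is also found in brain, read 470 and 8.9 and was at least 4.52-fold higher in brain, while its 430B probe set (114 and 22.2) was below the floor. The brain calls of Gng3 and Gng7 held under all 7 of these settings. Neither gene has a second sense probe set, so settings that choose among probe sets could not change its ratio.

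The gamma subunits higher in kidney were Gng11, Gng12 and Gngt2. Gng11, a widely expressed gamma with a farnesyl tail, read 433 in brain and 1690 in kidney, a 2.18-fold kidney excess. Gng12, also expressed in many tissues, read 393 and 1510, a 2.15-fold kidney excess, and its second probe set (210 and 899) gave 2.39-fold. Gngt2, the cone gamma, read 96.4 and 66.6 on 430B. Its kidney excess of at least 2.33-fold was lost at the 430A scale, where both signals were below the floor.

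The remaining gamma subunits were not called. Gng10 read 426 in brain and 927 in kidney and differed by 1.21-fold. Gng2 read 1986 and 782 on 430B: a 1.67-fold kidney excess with 430B centred by itself and a 1.81-fold brain excess at the 430A scale. Its second 430B probe set (686 and 202) turned likewise, from a log2 ratio of -0.32 to a 2.42-fold brain excess, and its 430A probe set above the floor (161 and 38.4) lay on the brain side, at least 1.55-fold. Gng4 read 584 and 74.9 on 430B and was 1.84-fold higher in brain, or at least 4.81-fold at the 430A scale. A 430A probe set of it (104 and 17.4) barely passed the floor in brain, with a log2 ratio of 0.004, a bound. Another (67.7 and 24.6) was below the floor in both tissues. Gng8, a gamma of olfactory and vomeronasal neurons, read 178 and 47.5, with ratios of 1.13-fold towards kidney and at least 1.47-fold towards brain under the respective scalings. Gngt1, the rod gamma, was below the floor with 20.8 and 14, as were 4 of 5 photoreceptor and pineal markers. Gng2, Gng8, Gnaq and Rgs2 thus changed sides between the scalings, and none of them passed 2-fold in both directions.

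**Figure D3:**
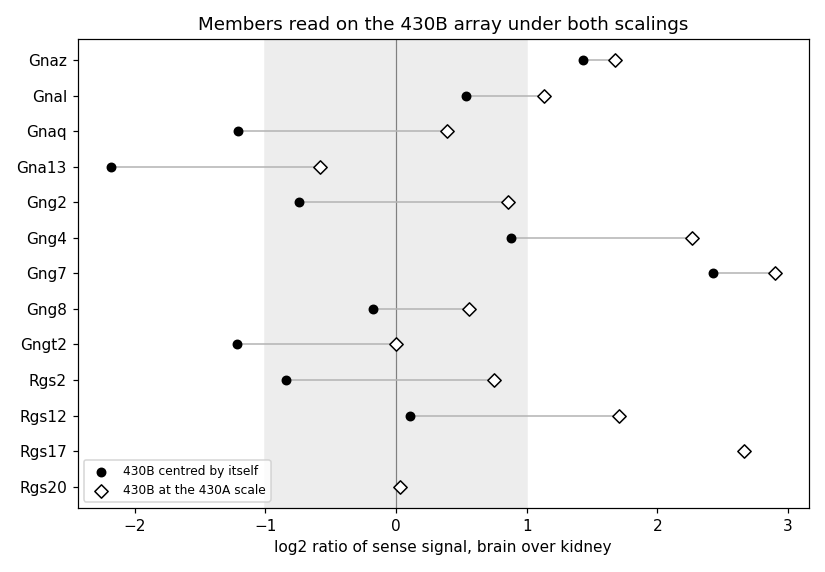
Log2 ratio of sense signal, brain over kidney, for the 13 members read on 430B, with the array centred by itself (filled circles) and brought to the 430A scale through the shared probe sets (open diamonds). Gnaq moves from -1.21 to 0.39 and Gna13 from -2.18 to -0.59. Rgs17 stays at 2.66 and Rgs20 at 0.03, their circles hidden by the diamonds. Their kidney signals are below the floor under both scalings, and the floor moves with the brain signals, so these ratios cannot change. Gngt2 is drawn at 0 at the 430A scale, where both tissues are below the floor.

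Of the Gpsm genes only Gpsm1, which keeps Gi alpha subunits from rejoining beta-gamma, was above the floor. It read 249 in brain against 73 in kidney, a brain excess of at least 2.40-fold, and its other pair of probe sets gave log2 ratios of -0.01 and 0.16, both bounds. Gpsm2, known from spindle orientation, read 39.2 and 157, and Gpsm3 read 77.9 and 145. Both were below the floor in the sense comparison, with kidney signals at percentiles 71.1 and 69.9 of the kidney array.

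RGS genes stood mostly on the brain side, with a median log2 ratio of 1.64 over the 13 above the floor (1.71 at the 430A scale). The R7 family acts in neurons as complexes with Gnb5, and both R7 members were higher in brain. Rgs7 read 592 in brain against 35.5 in kidney, a brain excess of at least 5.69-fold. Rgs9, whose long form is a striatal protein, read 423 and 92.7, at least 4.07-fold, and its 430B probe set (125 and 4.6) gave at least 1.03-fold. Their partner Gnb5 was thus on the same side.

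The R4 family holds small RGS proteins that act on Gi and Gq alpha subunits. Rgs4, an abundant RGS of cortex, read 1034 in brain and 63.4 in kidney, and all 3 of its probe sets were higher in brain, by at least 9.94-fold, 7.94-fold and 3.88-fold. Rgs8, known from Purkinje cells, read 566 and 25.8 and was at least 5.45-fold higher in brain. Of the 3 Purkinje markers read, 2 were higher in brain; their part in the Rgs8 ratio was not tested. Rgs2, which acts on Gq alpha, read 591 and 251 on 430B and was 1.80-fold higher in kidney, but 1.68-fold higher in brain at the 430A scale and 1.95-fold and 1.77-fold higher in brain by its 430A probe sets. Rgs3 read 222 and 257 and was 1.55-fold higher in brain after centring. Rgs16 read 83.4 and 66.9 and was below the floor, although another probe set of it read 106 in brain and 8.8 in kidney, just above the floor in brain.

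Rgs5, the RGS of pericytes and vascular smooth muscle, was the RGS gene higher in kidney. It read 742 in brain and 2715 in kidney, a 2.04-fold excess close to the threshold. It was also the 1 member with probe sets called both ways: a pair of others was higher in kidney (2.26-fold and 3.40-fold), while another read 214 in brain against 174 in kidney, a brain excess of at least 2.05-fold. With Rgs5 left out, 3 of the 5 pericyte and smooth muscle markers read were higher in kidney, with summed signals of 861 in brain and 7214 in kidney. Endothelial markers were higher in kidney for 2 of 5, with sums of 766 and 1752. The part of these cells in the Rgs5 ratio was not tested.

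In the R12 family, Rgs10, a small RGS of brain and immune cells, read 323 in brain against 96.4 in kidney, a brain excess of at least 3.11-fold. Rgs14, known from hippocampal neurons, read 388 and 117, at least 3.73-fold. Rgs12 read 674 and 147 on 430B, a ratio of 1.08-fold that became 3.26-fold in favour of brain at the 430A scale. In the RZ family, which prefers Gz alpha, Rgs17 read 769 and 11.1 and was at least 6.33-fold higher in brain under both scalings. That bound cannot differ between them, because the 430B floor is the brain array's median and moves with its signals. The 430A probe set of Rgs17 (423 and 25.9) gave at least 4.07-fold. Rgs20 (124 and 24.3) and Rgs19 (34.1 and 268) differed by less than 2-fold once raised to the floor, at 1.02-fold towards brain and 1.44-fold towards kidney, both lower bounds. Of the leukocyte markers 4 of 5 were below the floor in both tissues, and of the microglial markers 1 of 5 was higher in brain.

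Several members are neighbours on their chromosome, with no other protein-coding gene of the RefSeq annotation between them. The share of oppositely called pairs among all neighbouring genes was not counted. Of these 6 pairs of members, 2 were called in opposite directions. They were Rgs5 (kidney) beside Rgs4 (brain) on chromosome 1, and Rgs9 (brain) beside Gna13 (kidney, with 430B centred by itself, and not called at the 430A scale) on chromosome 11. The Rgs5 call, at 2.04-fold, was lost after quantile normalization, and another probe set of Rgs5 was called for brain. The 250 bases before the RefSeq start of each gene are shown for these pairs, chosen after their values were seen, because they are the places where closely linked members differed most between the tissues. The build is GRCm38.p6. Rgs5 lies on the plus strand (chr1:169655251-169655500), Rgs4 on the minus strand (chr1:169747643-169747892), Rgs9 on the minus strand (chr11:109298182-109298431) and Gna13 on the plus strand (chr11:109362544-109362793), each written 5′ to 3′ along the gene. Capitals mark matches to 5 short motifs searched on both strands: GGGCGG (the GC box), TATAAA, TGACGTCA (the cAMP response element), CACGTG (an E-box) and TTCAGCACC (the core of the site of the neuronal repressor REST).
Rgs5: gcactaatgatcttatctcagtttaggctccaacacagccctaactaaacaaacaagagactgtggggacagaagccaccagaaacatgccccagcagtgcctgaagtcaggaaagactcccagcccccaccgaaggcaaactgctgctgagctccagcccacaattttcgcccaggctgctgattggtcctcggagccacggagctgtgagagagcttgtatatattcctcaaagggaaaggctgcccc
Rgs4: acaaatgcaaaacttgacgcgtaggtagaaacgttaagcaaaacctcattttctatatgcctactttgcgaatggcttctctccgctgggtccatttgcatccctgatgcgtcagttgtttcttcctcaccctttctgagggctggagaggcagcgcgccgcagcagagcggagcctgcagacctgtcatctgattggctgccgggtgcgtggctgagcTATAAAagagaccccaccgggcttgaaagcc
Rgs9: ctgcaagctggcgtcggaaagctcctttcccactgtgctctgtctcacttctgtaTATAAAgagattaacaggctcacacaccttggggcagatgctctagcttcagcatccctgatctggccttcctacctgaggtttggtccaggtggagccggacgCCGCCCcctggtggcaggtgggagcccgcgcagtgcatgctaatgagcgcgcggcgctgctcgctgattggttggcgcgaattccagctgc
Gna13: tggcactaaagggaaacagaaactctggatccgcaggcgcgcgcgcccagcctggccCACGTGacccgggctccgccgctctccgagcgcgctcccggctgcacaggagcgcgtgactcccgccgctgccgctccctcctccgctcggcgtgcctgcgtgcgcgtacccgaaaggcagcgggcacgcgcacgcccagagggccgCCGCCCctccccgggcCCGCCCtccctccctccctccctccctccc
The Rgs4 sequence holds TATAAA beginning 31 bases before the start on the strand of the gene, and that of Rgs5 holds none of the 5 motifs. Rgs9 holds TATAAA 195 bases and, on the opposite strand, GGGCGG 91 bases before the start. Gna13 holds GGGCGG on the opposite strand at 46 and 30 bases and CACGTG at 193 bases, and its GC content was 76%, beside 59.6% for Rgs9 and 53.6% for each of Rgs4 and Rgs5. Promoters matched 37 of the members. Of their 50 promoters, 27 (54%) held GGGCGG, 7 (14%) TATAAA, 4 (8%) CACGTG and 0 either of the others, while the shares among all 32851 promoters were 32.7%, 12.4%, 6.02%, 1.55% (TGACGTCA) and 0.30% (TTCAGCACC). The median GC content was 60.0% for the promoters of members and 52.4% for all. These matches describe letters only.

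The other genes of the pathway give the setting of these values. Of 17 further G protein and RGS genes, 14 were read and 7 were above the floor, 5 of them (71.4%) higher in brain and 0 in kidney. The shares over all genes above the floor were 17.8% and 27%. At the 430A scale 6 of 7 were higher in brain and 0 in kidney, beside 27.2% and 15.8% of all genes. Pcp2, a GoLoco protein of Purkinje cells, was at least 8.98-fold, Rgs7bp, the membrane anchor of R7 complexes, 7.86-fold (at least 17.4-fold at the 430A scale) and Rap1gap, a Rap GTPase activator that binds Gi-class alpha subunits, 6.83-fold higher in brain. Gnas, the gene of Gs alpha, read 3804 in brain and 4995 in kidney and differed by 1.36-fold. Gnat1 and Gnat2, the transducin alpha genes, were below the floor like Gngt1 and Gnb3.

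The 29 effector genes read included 24 that passed the floor. Brain was higher for 8 (33.3%) and kidney for 4 (16.7%) of these, beside 17.8% and 27% of all genes. At the 430A scale the counts were 12 (52.2%) and 0 of 23, beside 27.2% and 15.8% of all genes. With 430B centred by itself, the largest brain ratios were those of Prkar1b, a regulatory subunit of protein kinase A (8.27-fold), and of the adenylyl cyclases Adcy2 (at least 6.28-fold) and Adcy5, the striatal cyclase (4.17-fold). At the 430A scale Prkar1b (25.0-fold) was followed by Adcy5 (12.6-fold) and the cyclase Adcy1 (11.6-fold), both above the bound of Adcy2, which is read on 430A. Because the Adcy2 ratio is a lower bound, its true place in either order is not known. The largest kidney ratios, all from 430B and lost at the 430A scale, were those of Prkaca (5.04-fold) and Prkar2a (4.70-fold), catalytic and regulatory subunits of protein kinase A, and of the channel gene Kcnj5 (at least 2.22-fold). Among receptor kinases and arrestins, 6 of 9 genes read were above the floor. Arrb1 and Arrb2, the arrestins that end receptor signalling, were 3.20-fold and at least 2.44-fold higher in brain, and the kinase gene Grk6, read on 430B, was 5.16-fold higher in kidney, a call not kept at the 430A scale.

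Of 90 receptor genes listed, 72 were read and 43 were above the floor. Brain was higher for 17 (39.5%) and kidney for 8 (18.6%), beside 17.8% and 27% of all genes. At the 430A scale the counts were 19 (50%) and 6 (15.8%) of 38, beside 27.2% and 15.8% of all genes. With 430B centred by itself, the largest brain ratios belonged to Cnr1, the cannabinoid receptor of neurons (at least 12.5-fold), Grm4, a metabotropic glutamate receptor (9.50-fold), and Gabbr1, a GABA-B receptor subunit (at least 8.34-fold). At the 430A scale Grm4 (at least 16.1-fold) came before Cnr1, and Chrm1, a muscarinic receptor (at least 11.2-fold), before Gabbr1. Ratios are ranked as printed, after signals were raised to the floor. All of these brain ratios are lower bounds at the 430A scale, so their true order is not known. The largest kidney ratios belonged to Agtr1a, an angiotensin II receptor (18.9-fold), S1pr3, a receptor of sphingosine 1-phosphate (18.7-fold), and Pth1r, the parathyroid hormone receptor of the tubule (at least 16.0-fold). Agtr1a and S1pr3 were read on 430B and came to 6.23-fold and 6.18-fold at the 430A scale, below Pth1r and the thrombin receptor gene F2r (11.8-fold), both read on 430A. The median log2 ratio was 0.47 for the receptors, 0.58 for the effectors and 0.31 for the receptor kinases and arrestins, and 1.08, 1.34 and 0.81 at the 430A scale. Over all genes the median was -0.11, and 0.31 at the 430A scale.

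**Figure D4:**
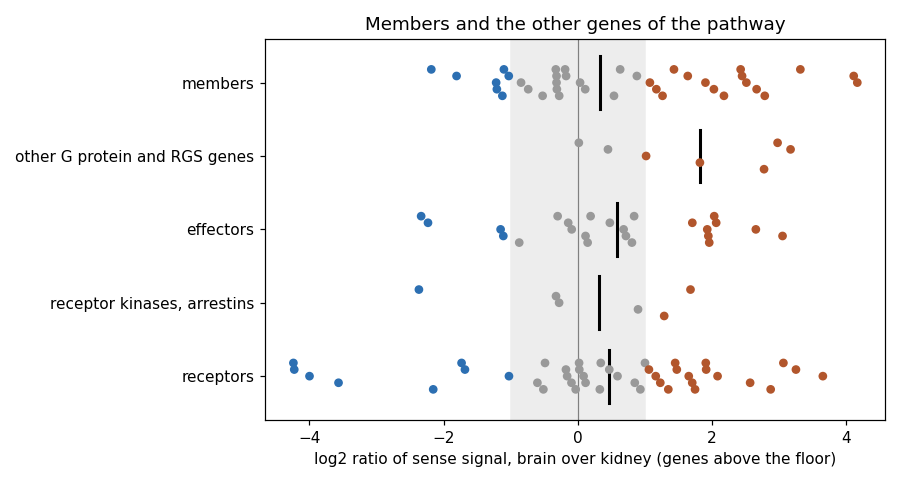
Log2 ratio of sense signal, brain over kidney, of every gene above the floor among the members and 4 lists of pathway genes, with bars at the medians. Orange points are 2-fold or more higher in brain, blue points 2-fold or more higher in kidney, grey points neither, and vertical offsets only separate the points. Medians are 0.32 for the 38 members, 1.82 for the other G protein and RGS genes, 0.58 for effectors, 0.31 for receptor kinases and arrestins and 0.47 for receptors, all with 430B centred by itself.

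Reverse probe sets were present for 9 members, 5 gamma subunits, 1 Gpsm gene and 3 RGS genes, and for none of the alpha or beta subunits. Each reads the strand opposite to the gene, and its signals are compared as deposited with a floor at the higher 75th percentile of the array pair (63.5 for U74A and 98.5 for U74B). Of the 13 reverse probe sets, 7 were above the floor, in 7 different genes. On U74A, 4 of the 5 above the floor were higher in brain, against a background of 28.8% (brain) and 3.73% (kidney) over all 723 reverse probe sets above the floor there. On U74B, 1 of 2 was higher in kidney, against a background of 14.3% (brain) and 6.41% (kidney) over 983.

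Gpsm2 had the largest reverse ratio. Its reverse probe set read 379 in brain against 63.3 in kidney, a brain excess of at least 5.96-fold, while its sense probe set (39.2 and 157) was below the floor in both tissues. It was the 1 member above the floor on the reverse strand only, although its kidney sense signal was at percentile 71.1 of the kidney array. Gngt2 read 464 in brain and 129 in kidney on the reverse strand, 3.60-fold higher in brain, against a sense ratio on the kidney side that was lost at the 430A scale. Its reverse log2 ratio of 1.85 was 0.91 after quantile normalization, under 2-fold. Gng11 was called in opposite directions on the strands: its reverse probe set read 254 and 102, 2.50-fold higher in brain, and its sense probe set 433 and 1690, 2.18-fold higher in kidney. The reverse call was lost with the array pairs centred (log2 ratio 0.59), after quantile normalization (0.43) and with the floor at the 90th percentile (0.85), and the sense call after quantile normalization.

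Rgs10 was higher in brain on both strands. A reverse probe set read 455 in brain and 178 in kidney, a 2.56-fold brain excess, beside at least 3.11-fold on the sense strand. This reverse call was lost with the pairs centred (log2 ratio 0.62) and after quantile normalization (0.44). Its other reverse probe sets (55.9 and 13.8, and 22.3 and 17.3) were below the floor. Gng2 had the brightest reverse probe set of the members. That probe set read 1251 in brain and 2981 in kidney, 2.38-fold higher in kidney and above 99.6% of the brain array's reverse probe sets, whereas a second reverse probe set of the gene read 14.1 and 4. Its name carries the letter f, which marks probes shared within a gene family, so the transcript behind this signal cannot be told from the file; the Gng11 probe set carries the same letter, and the bright Rgs10 probe set a g, which also marks shared probes. Rgs3 (86.7 and 19.2) and Rgs12 (114 and 105) were above the floor and below 2-fold, and the reverse probe sets of Gng4 (2.9 and 3.8) and Gng8 (91.9 and 78) were below it. In all, 6 members were above the floor on both strands.

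**Figure D5:**
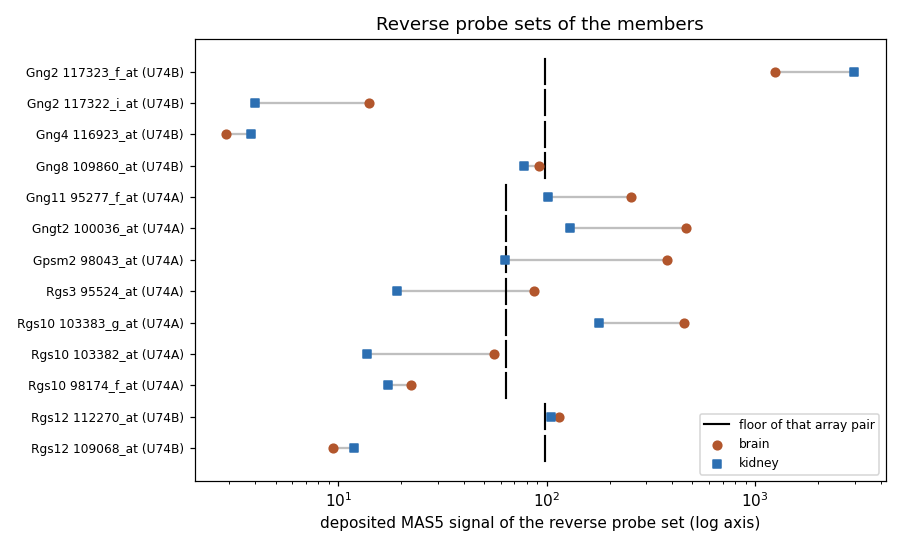
Deposited signals of the 13 reverse probe sets of the members in brain (circles) and kidney (squares) on a log axis, with a black mark at the floor of each array pair. Gpsm2, Gngt2, Gng11 and 1 probe set of Rgs10 lie 2-fold or more apart with brain higher, 1 probe set of Gng2 lies at 1251 and 2981 with kidney higher, and 6 probe sets are below the floor in both tissues.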

How the data were processed

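The files hold MAS5 signals, a linear intensity per probe set that the authors deposited in 1 table per array design; MAS5 is named in the submitters' processing notes, with target scaling not given in the sources used here. Antisense tables hold only the reverse probe sets of U74A (2611) and U74B (3041). Probe sets were named through the platform annotation, which can be old, and only where it gave 1 symbol. Each brain sense array was set against kidney probe set by probe set and centred on the median log2 ratio of probe sets above both medians (-0.84 for 430A, 2.08 for 430B). The floor was the higher array median after centring, and the 100 probe sets on both brain arrays were used once, from 430A. Antisense signals were not rescaled. Calls were 2-fold or more and above the floor in at least 1 tissue. Every member is reported through its representing probe set, with other probe sets where they lie on another side, and up to 3 genes each way from each pathway list. Members and gene lists were chosen with earlier results of these data known, and the motifs after seeing the values. With 1 array per group there is no test, and precision is limited by how few arrays there are. Alternatives were the deposited scale, quantile normalization, the 430A scale for 430B, other floors and the median over probe sets. A further one left out every probe set with a letter suffix, whatever the letter marks. Calculations used Python 3.11.15, numpy 2.4.6, pandas 2.3.3 and matplotlib 3.10.9, and were tested on simulated data.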

Additional observations from a re-analysis of the deposited data

How the results depend on the processing

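Of the 16 brain calls 6 held under all 7 other settings listed for the sense arrays (Gng3, Gng7, Rgs4, Rgs8, Rgs7 and Rgs17). So did 1 of 7 kidney calls (Gnai3), and no call was made in the opposite direction. Some settings could not change some of these calls. Moving 430B to the 430A scale leaves the ratios read on 430A, and that of Rgs17, as they are. Gng3, Gng7, Rgs7 and Rgs8 have no second sense probe set, so settings that choose among probe sets leave their ratios as they are. With the floor at the 75th percentile, brain was higher for 9 of 33 members above it, beside 1083 of 8829 genes. Kidney was higher for 11 of 40 members with signals as deposited, beside 3255 of 12499 genes. It was higher for 3 of 41 after quantile normalization, beside 3183 of 13525 genes. With 430B at the 430A scale it was higher for 4 of 37, beside 1965 of 12464 genes. The members' median log2 ratio was 0.72 as deposited, 1.07 at the 430A scale and 0.80 on 430A probe sets only. Over all genes it was 0.07, 0.31 and 0.05 in the same order. Gnaq turned to the brain side, with log2 ratios of 0.88 as deposited, 0.39 at the 430A scale and 0.026 on 430A only. Reverse probe sets higher in brain numbered 2 with the pairs centred, 1 after quantile normalization and 2 without suffix-marked probe sets, and the last setting left 0 higher in kidney and 3 members above the floor on both strands, since it drops probe sets. The cause of the other changes was not tested. The 430A-only setting, and centring 430B without the shared probe sets (15 higher in brain, 7 in kidney, median 0.22), were chosen after seeing the data. No paired analysis was possible because each group has 1 array.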
